A study of Mus musculus with 2 samples.

Results

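Retinoid transport and retinoic acid synthesis were examined here through 9 genes, Rbp4, Stra6, Crabp1, Crabp2, Rdh10, Dhrs3, Aldh1a1, Aldh1a2 and Aldh1a3, in mouse uterine epithelium. The genes were taken from a list, and every probe set that the array's annotation assigned to exactly 1 of them was used, which gave 12 of the 34945 probe sets that named 1 gene and 9 of 18193 genes. A probe set is a group of short probes on the array that report 1 transcript together. There was 1 array for C57BL/6 mice with floxed Msx1 and Msx2 (the floxed control) and 1 array for Msx1Msx2-null mice of the same strain, in which a Cre recombinase expressed from the progesterone receptor locus (PRcre) had deleted both homeobox genes. Such a Cre acts wherever the receptor is made, so that the deletion is not limited to the epithelium. Both groups were sampled on day 4 of pregnancy after mating with fertile males, and the ages of the mice are not given. The labels contradict each other on the material: the treatment text describes epithelium squeezed from trypsin-treated uterus of 5 mice per genotype, and the extraction text describes stromal cells of 4 per genotype. The titles of both samples name epithelial cells. Whether RNA of several mice was pooled is not stated. With 1 array in each group, no test was possible and nothing below could be checked against replicates.

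Vitamin A circulates as retinol bound to retinol-binding protein, and cells oxidise it first to retinal and then, irreversibly, to retinoic acid. Retinoic acid is carried inside the cell by small binding proteins, acts through nuclear receptors that bind DNA as heterodimers, and is cleared by cytochromes of the CYP26 family. In the uterus retinoids are known for their part in the differentiation of the epithelium and of the stroma that decidualises around the embryo.

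All signals below are MAS5 intensities on a linear scale. A signal under 21.1, the 50th percentile of all non-control signals over both arrays, was treated as too dim to measure and set to that floor. Differences are null minus control on the log2 scale, and a gene with several probe sets was represented by the brightest. Of the 9 genes 7 reached the floor on at least 1 array. In the null sample Crabp2 was 14.2-fold, Aldh1a1 2.88-fold and Rbp4 at least 2.23-fold higher, while Rdh10 and Dhrs3 were lower by less than 2-fold and Stra6 and Aldh1a2 differed little. Thus 3 of 7 measured genes were at least 2-fold higher, where 7.73% of all 11662 measured genes were, and none was at least 2-fold lower, where 4.75% of all genes were. The median of the 7 differences was 0.35, against 0.08 over all measured genes. Counted by probe set, 3 of 8 were at least 2-fold higher and none lower, beside 6.25% and 6.49% of all 20942 measured probe sets. The 7 genes are only those that passed the floor, and Rbp4 passed it through the null array alone, so these counts describe them and are not evidence about the 9.

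**Figure D1:**
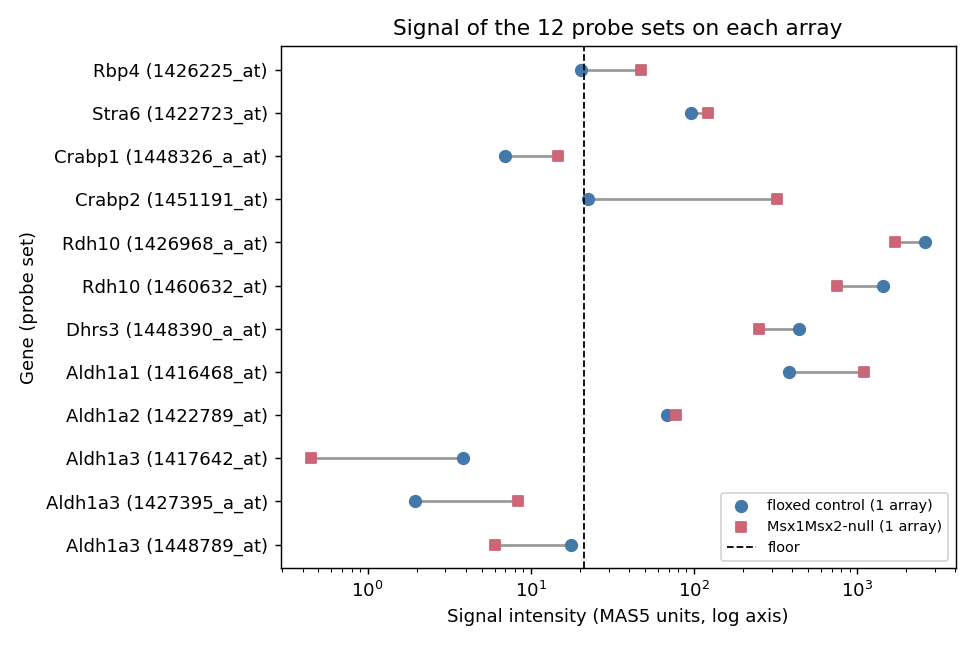
Signal intensity (MAS5 units, log axis) of the 12 probe sets on the floxed control array (circles) and the null array (squares), with a line joining the values of 1 probe set and the floor of 21.1 dashed; there are no error bars because each group has 1 array. Crabp2 runs from 22.5 to 321, both Rdh10 probe sets and Dhrs3 lie lower in the null, and Crabp1 and the 3 Aldh1a3 probe sets stay left of the floor.

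The only gauge of error in these data is how far probe sets of the same gene disagree. The standard deviation of their log2 differences around the mean of their gene was 0.42 among dim genes, 0.39 among genes of middling signal and 0.34 among bright genes. Each of these groups held about as many genes. This gauge holds no spread between animals or between preparations, and a gap between 2 differences carries the error of both. The targeted gene Msx1 read 1658 against 28.1 and 3474 against 42.3, control against null, at its 2 probe sets. Msx2 read 63.4 against 23.6 at 1 probe set and lay under the floor at the other. The labels do not name the deleted exons, so whether these probes fall inside them is unknown.

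RefSeq windows upstream of the transcription start, from build GRCm38.p6, were held for 6 of the 9 genes (13 windows of 250 bases, since a gene can have several starts); Crabp2, Rdh10 and Aldh1a3 had none. A window of Rbp4 and a window of Aldh1a1 are shown because these 2 genes were past 2-fold higher and their windows held the letters searched. The search covered both strands for the core sites AGGTCA or AGTTCA or GGGTCA or GGTTCA, which retinoic acid receptors and other nuclear receptors can recognise, for direct repeats of any pair of these core sites spaced by 1, 2 or 5 bases, which contain the core sites, and for TAATTG, a core recognised by Msx and many other homeodomains. Capitals mark the matches.
Rbp4, chr19:38125322-38125571, minus strand: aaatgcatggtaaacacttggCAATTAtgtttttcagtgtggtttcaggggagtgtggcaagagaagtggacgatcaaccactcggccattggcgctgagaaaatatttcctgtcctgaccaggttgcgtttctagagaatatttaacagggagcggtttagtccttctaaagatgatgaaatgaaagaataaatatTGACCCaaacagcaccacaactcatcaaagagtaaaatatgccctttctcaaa
Aldh1a1, chr19:20601718-20601967, plus strand: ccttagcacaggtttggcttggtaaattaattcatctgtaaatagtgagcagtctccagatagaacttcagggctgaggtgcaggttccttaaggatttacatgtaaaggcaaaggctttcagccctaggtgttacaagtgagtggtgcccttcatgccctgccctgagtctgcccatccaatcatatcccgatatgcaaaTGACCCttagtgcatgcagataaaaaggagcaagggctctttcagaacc
In the Rbp4 window TAATTG lay on the opposite strand, beginning 229 bases before the start, and GGGTCA likewise 53 bases before it. In the Aldh1a1 window GGGTCA lay on the opposite strand 49 bases before the start. These were the only matches to the searched letters in the 13 windows, none of which held a direct repeat. Among all 32851 windows of that length TAATTG was present in 7.17%, AGGTCA in 14.0%, AGTTCA in 11.8%, GGGTCA in 11.6%, GGTTCA in 8.85% and the direct repeats in 0.164%, 0.174% and 0.0883% for spacings of 1, 2 and 5. The matches are letters in a window, and no binding was measured here.

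Of the carriers and the uptake receptor, Crabp2 stood apart. Crabp2 encodes a cytosolic protein that passes retinoic acid to its nuclear receptor. Its single probe set (1451191_at) read 22.5 in the control, barely above the floor, against 321 in the null, a log2 difference of 3.83. That is 9.20 times the gauge for dim probe sets and rank 18 from the top among 11662 genes. Because the control signal is so close to the floor, the size follows the treatment of dim values: it was 2.14 with the floor at the 67th percentile and 3.13 with no floor and a pseudocount of 16. It was the largest of the 7 differences under each of these settings, and it exceeded that of Aldh1a1, the next, by 2.31.

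Crabp1, the related binding protein, gave no comparison. Its probe set (1448326_a_at) read 6.94 in the control against 14.8 in the null, both under the floor. A level under the floor is not a level of 0.

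Rbp4, the carrier of retinol in plasma, and Stra6, the membrane receptor through which cells take retinol up from it, were each read at 1 dim probe set. Rbp4 (1426225_at) read 20.4 in the control, under the floor, and 47.2 in the null, so that its log2 difference of 1.16 is a bound. It fell short of 2-fold after scaling to the hybridization spike-ins, control RNAs added before hybridization (0.92), and with the pseudocount (0.80), and with the floor at the 67th percentile it was not measured. Stra6 (1422723_at) read 95.8 and 122, a log2 difference of 0.35 that is smaller than the disagreement between probe sets of 1 gene. Stra6 stayed under 2-fold in all settings tried, at 0.06 with the spike-in scaling. The gap between the 2 genes carries the error of both, so whether Rbp4 changed more than Stra6 is not resolved.

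The pair of enzymes that interconvert retinol and retinal was lower in the null. Rdh10 encodes the dehydrogenase that oxidises retinol to retinal, the first step of synthesis. Its brighter probe set (1426968_a_at) read 2600 in the control against 1719 in the null, a log2 difference of -0.60, and the other (1460632_at) read 1443 and 755, a difference of -0.93. The 2 probe sets thus pointed the same way, and the gap of 0.34 between them was about the size of the gauge for bright genes. Dhrs3 encodes the reductase that turns retinal back into retinol and acts in a complex with Rdh10. It read 443 and 249 at its probe set (1448390_a_at), a difference of -0.83. Enzymes of opposite direction were therefore lower together, and the gap of 0.23 between Rdh10 and Dhrs3 was below the gauge. Of all genes 11.7% lay below Rdh10 and 7.13% below Dhrs3. With the spike-in scaling Dhrs3 passed 2-fold, at -1.12, and the brighter probe set of Rdh10 stood at -0.89. Counted by probe set, 2 were then past 2-fold lower, that of Dhrs3 and the dimmer one of Rdh10.

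The 3 retinaldehyde dehydrogenases, which make retinoic acid from retinal, did not behave alike. Aldh1a1 (1416468_at) read 384 in the control against 1106 in the null, a log2 difference of 1.53, which is 4.51 times the gauge for bright probe sets. Only 375 of 11662 genes, itself included, had a difference as high. It stayed past 2-fold in all 10 settings, between 1.24 and 1.60. The difference exceeded that of Rbp4 by 0.36, about the gauge, so that the order of these 2 genes is not resolved. Aldh1a2, the form known from stroma and mesothelium, read 68.6 and 77.4 (1422789_at), a difference of 0.17 that turned to -0.11 with the spike-in scaling. The gap of 0.17 between Stra6 and Aldh1a2 was likewise under the gauge. Aldh1a3 lay under the floor on both arrays at all 3 probe sets, which read 17.6 and 6.01 (1448789_at), 3.83 and 0.452 (1417642_at), and 1.95 and 8.37 (1427395_a_at). The first and second were lower and the third higher in the null, so at these signals not even a direction could be given.

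**Figure D2:**
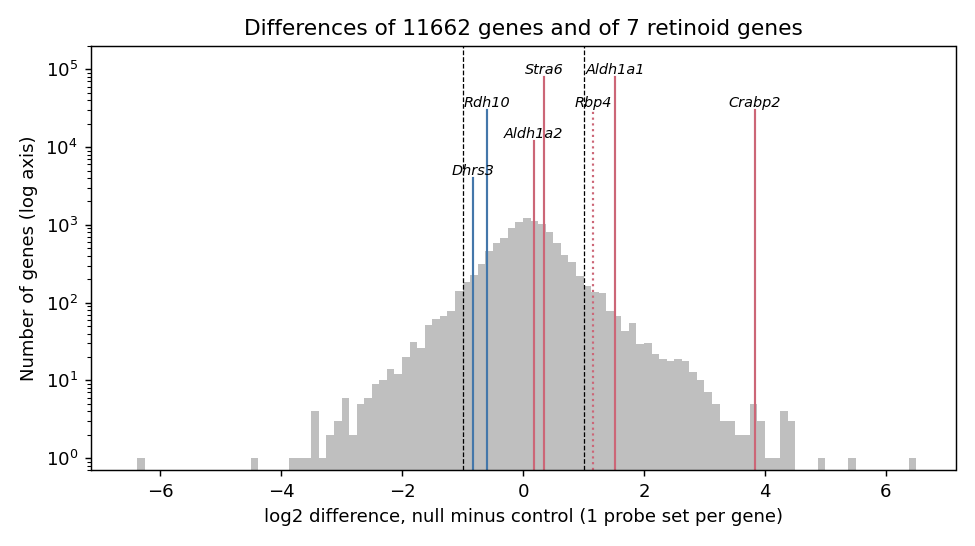
Histogram of the log2 differences (null minus control, 1 probe set per gene) of 11662 genes on a log count axis, with a vertical line at each of the 7 measured retinoid genes (dotted for Rbp4, a bound) and dashed lines at 2-fold. Crabp2 at 3.83 lies in the far right tail, Aldh1a1 at 1.53 and Rbp4 at 1.16 on the right shoulder, and Rdh10 and Dhrs3 at -0.60 and -0.83 on the left flank inside the 2-fold line.

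Scaling to the 16 spike-in probe sets took the same 0.29 from every log2 difference above the floor, so it moved the median of all genes by -0.28, from 0.08 to -0.19, and left the order of the genes almost as it was by construction. Relative to the median of all genes as deposited, Crabp2 stood at 3.75, Aldh1a1 at 1.44, Rbp4 at 1.08, Stra6 at 0.26, Aldh1a2 at 0.09, Rdh10 at -0.68 and Dhrs3 at -0.91. The split of genes past 2-fold moved from 902 higher and 554 lower to 574 and 1040 under that scaling, so that higher genes made up 62.0% and 35.6%.

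**Figure D3:**
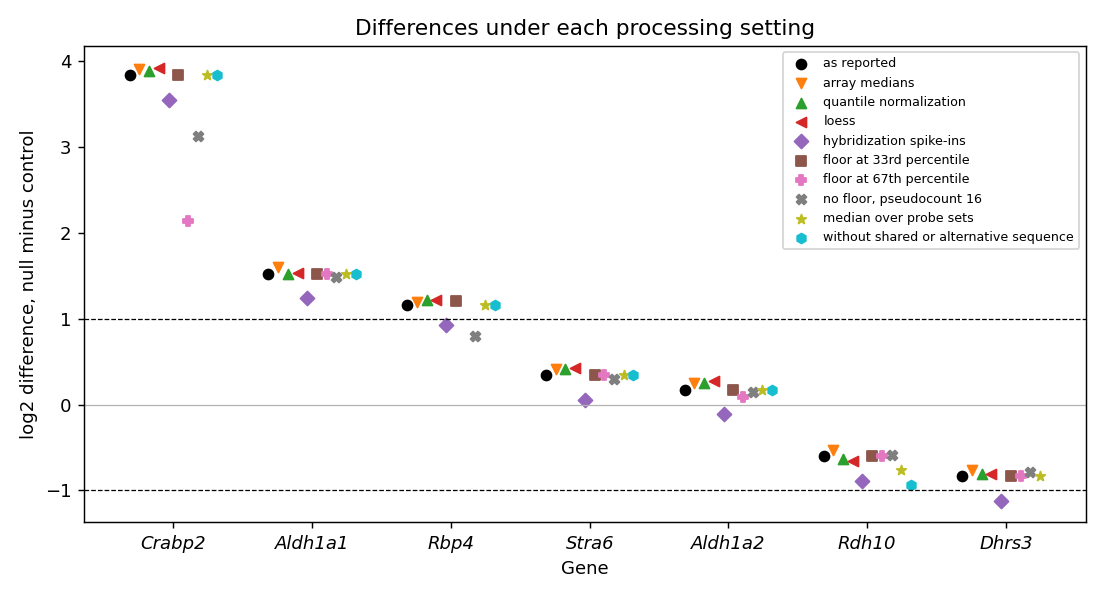
Log2 difference (null minus control) of the 7 measured genes under the reported setting and 9 alternatives, 1 marker per setting, with dashed lines at 2-fold. Aldh1a1 stays between 1.24 and 1.60, Crabp2 drops to 2.14 with the highest floor, and Dhrs3 crosses the lower line only with the spike-in scaling, at -1.12.

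The rest of the pathway was read from lists of 78 further genes, of which 69 had a probe set of their own and 44 were measured. In the null 6 of the 44 (13.6%) were at least 2-fold higher and 1 (2.27%) at least 2-fold lower, beside the 7.73% and 4.75% of all genes. Their median was 0.09, against 0.08 for all genes. With the floor at the 33rd percentile the counts were 8 higher and 4 lower, beside 1341 higher and 793 lower of all 14652 genes measured at that floor.

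The second intracellular carrier was higher as well. Fabp5, a fatty acid-binding protein that can hand retinoic acid to the receptor Ppard, read 481 in the control against 4232 in the null at the brighter probe set and 159 and 1701 at the other, log2 differences of 3.14 and 3.42. Fabp5 has processed copies in the genome, and which of them the probes can detect was not examined. Ppard itself stood at 0.16. Of the other carriers of retinol and retinal, Lrp2, an endocytic receptor that also takes up Rbp4, was the only 1 of 6 with a probe set that was measured, at -0.57 (further probe sets at -0.06 and -1.02).

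Among 14 measured retinol and retinal oxidoreductases beside Rdh10 and Dhrs3, 2 were at least 2-fold higher and 1 lower. Adh1, an alcohol dehydrogenase that also oxidises retinol, read 180 and 630, a difference of 1.81. Retsat, which saturates retinol, stood at 1.44 at its brighter probe set (26.2 and 70.8) and at a bound of 0.04 at the other, and it fell short of 2-fold with the median over probe sets (0.74). Sdr16c6, of the short-chain dehydrogenase family, read 168 in the control against 18.1 in the null, at least 7.95-fold lower, with a bound of -1.21 on the log2 scale when the floor was at the 67th percentile. None of the remaining 11 reached 2-fold by the brightest probe set, and Dhrs7 stood at 0.91. Rdh12, at 1.26 in the control and 27.2 in the null, had a bound of 0.36 that became 1.66 with the floor at the 33rd percentile and 1.32 with the pseudocount, and Rdh11 stood at 0.56 and at 1.25 at a further probe set. Aldh1a7, a close relative of Aldh1a1, read 70.3 and 826, a difference of 3.56; whether its probe set and that of Aldh1a1 also detect each other's transcript was not tested. Lrat, which esterifies retinol for storage, read 41.1 in the control against 9.30 in the null at 1 probe set, a bound of -0.96, and was under the floor at the other. It passed 2-fold lower with the spike-in scaling (-1.10), the pseudocount (-1.17) and the floor at the 33rd percentile (-2.14). Aox4, listed among the enzymes that oxidise retinal, read 30.1 in the control against 8.33 in the null. Its bound of -0.51 became -1.80 with the floor at the 33rd percentile. Lipe, listed with ester release, stood at -0.39 and at a bound of -1.19 at a further probe set (48.2 and 18.1).

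None of the measured nuclear receptors and clearing enzymes reached 2-fold, with 2 exceptions once the floor was lowered. Rara stood at -0.45 (33.3 and 24.4), Rarg at 0.38 (99.4 and 130), Rxra at 0.51 (164 and 234, with 0.12 at a further probe set) and Rxrb at -0.26 (297 and 248), while Rxrg was under the floor. Rarb, both a receptor and a direct target of retinoic acid, read 12.1 in the control against 24.3 in the null, just above the floor, a bound of 0.20 that became 1.01 with the floor at the 33rd percentile. Cyp26a1, which degrades retinoic acid and is induced by it, read 643 and 679, a difference of 0.08 that turned to -0.21 with the spike-in scaling. Cyp26b1 was under the floor on both arrays, at 17.9 in the control and dimmer still in the null, and had a bound of -1.05 with that lower floor. Of 13 measured genes known to respond to retinoic acid in various cells, 2 reached 2-fold higher in the null, none reached it in the other direction, and the median was 0.08. These were the homeobox gene Meis2, at 2.51 (further probe sets at 0.74, 1.82 and 2.04, the first being the one left when probe sets marked as shared or alternative were omitted), and the cyclin gene Ccnd1, at 1.33 (1.44 and 1.55), which many other signals also control. Going the other way, the homeobox gene Meis1 stood at -0.08 at its brightest probe set and at -1.24 at another (336 and 143), the value it took when probe sets marked as shared or alternative were omitted, and Wt1, at -0.72, reached -1.01 with the spike-in scaling. Of the 4 measured coregulators of the receptors none passed 2-fold by the brightest probe set, with a median of -0.37 and 1 of 4 above 0. Further probe sets did pass it. The coactivator gene Ncoa2 stood at -0.67 and at -1.27 at another probe set, with the rest at -0.68 and a bound of -0.30. Nrip1, a corepressor that retinoic acid also induces, stood at -0.33 and at -1.53 at another. Its remaining probe sets stood at -0.36, -0.43 and -0.65.

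**Figure D4:**
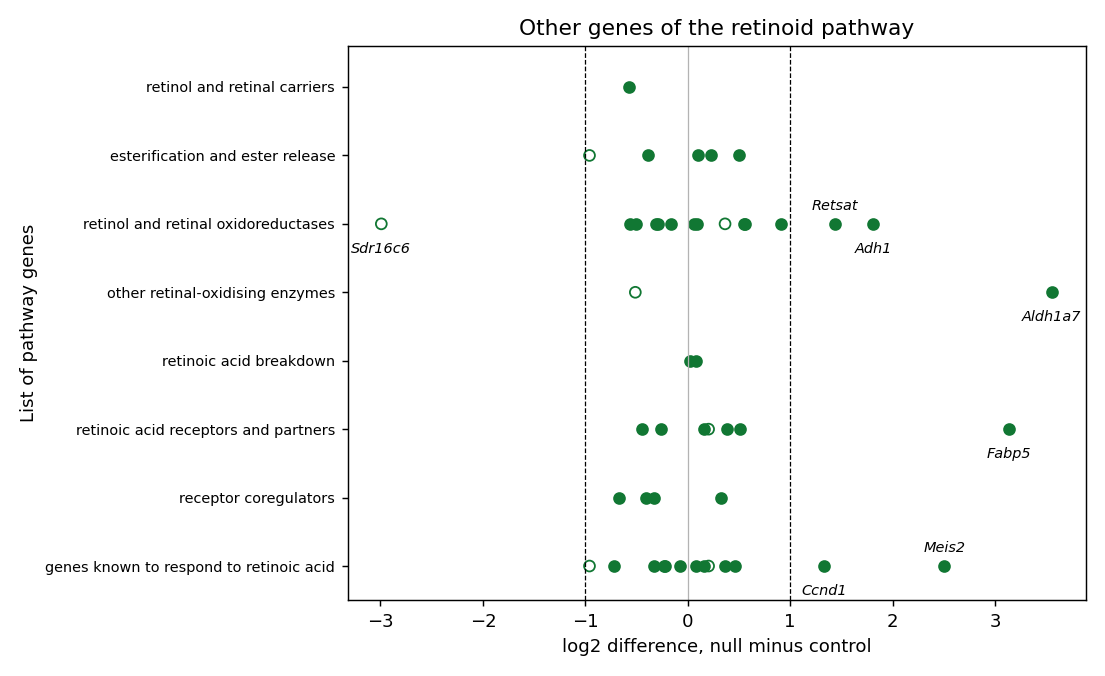
Log2 differences (null minus control) of the measured pathway genes outside the 9, by list, with filled circles for genes above the floor on both arrays, open circles for bounds and dashed lines at 2-fold; a gene in 2 lists appears in both. Named genes lie past 2-fold: Aldh1a7, Fabp5, Meis2, Adh1, Retsat and Ccnd1 on the right and Sdr16c6 on the left, with the receptors and the breakdown enzymes near 0.

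Markers of other cell types moved between the same arrays, beside the values above. Epithelial markers were bright and alike, with none of 11 past 2-fold and summed signals of 39610 in the control against 42670 in the null. Of 12 measured stromal markers 11 were higher in the null (median 0.59, 1 past 2-fold, summed signal over 13 genes 10300 and 13220). Of 7 smooth muscle markers 5 were at least 2-fold higher (summed signal over 8 genes 336 and 1009). Myh11, Cnn1 and Actg2 among them passed the floor through the null array alone, so they could only come out higher. Acta2 and Tagln were above it on both arrays. Gland markers had a median of 1.00 over 5 genes, with 2 at least 2-fold higher and 1 lower (summed signal over 6 genes 260 and 354). Spink1, the lower one, passed the floor through the control array alone, and Prss29 through the null array alone. The 7 measured mesothelial markers were all lower as deposited (median -0.62, summed signal over 8 genes 1585 and 1086). Muc16 among them passed the floor through the control array alone, so it could only come out lower. Of 8 measured macrophage markers 7 were higher (median 0.79, summed signal over 9 genes 5342 and 5936). Cd14, the only lower one, made up most of that macrophage sum, at 4260 in the control and 4086 in the null. Of 5 measured lymphocyte and plasma cell markers all were higher, 2 of them at least 2-fold (median 0.35, summed signal over 6 genes 248 and 1214). Most of that sum was Jchain, of plasma cells, at 71.5 and 978, a log2 difference of 3.77 close to that of Crabp2. In the same list Cd3e and Cd3g passed the floor through the null array alone, so they could only come out higher. Cd79a, dimmer in the null, was under the floor on both arrays (9.7 and 1.39) and was not counted. Endothelial markers had a median of 0.18 over 8 genes, and the single measured blood marker stood at 0.81. No defining marker was listed at 0 on either array, which does not show that each cell type was present. Markers far under the floor also carried a signal, such as Lmod1 (2.07 and 1.41) and Prss28 (2.98 and 1.22). In RNA from a mixture, more cells of a type and more RNA per cell cannot be told apart, and the part that these markers play in the differences of Crabp2, Aldh1a1, Rbp4, Rdh10 and Dhrs3 was not tested.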

How the data were processed

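The deposited values are signal intensities per probe set on a linear scale, which the authors computed by MAS5, per the submitters' processing notes, which also name Affymetrix Expression Console 1. MAS5 scales each array, and the 2% trimmed mean was 150 on both, so a difference in total RNA per cell would not show. Per the labels, 100 ng of total RNA was amplified from the 3' end. Of 45101 probe sets, 45037 were not array controls, and 34945 of these named 1 gene in the platform annotation; the others were left unnamed. No genome build is given in the sources used here.

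Differences, floor (50th percentile, 21.1), 2-fold threshold and probe set choice are described with the results. Alternatives tried were 4 scalings (by hybridization spike-ins, by loess with span 0.3, by quantile normalization, by array medians), floors at the 33rd and 67th percentile, a pseudocount of 16, the median over probe sets, omission of probe sets of shared or alternative sequence, and thresholds of 1.5-fold and 3-fold. Python 3.11.15, numpy 2.4.6, pandas 2.3.3 and statsmodels 0.14.6 were used, and the calls were tested on simulated data. The planted differences there were well past 2-fold and lay only in bright probe sets. That test therefore says nothing about dim genes such as Crabp2 and Rbp4, or about smaller differences. With 1 array in each group, the number of arrays limits the precision. All 12 probe sets of the 9 genes are named; of the pathway lists, every gene past 2-fold is named, and the receptors, Cyp26 genes, Lrat and Fabp5 whatever their values. Lrp2, Dhrs7, Ppard, Rdh11, Rdh12, Aox4, Lipe, Meis1, Wt1, Ncoa2 and Nrip1 were chosen after their values were seen. The 9 genes, the lists and the settings were chosen with earlier results of these data known.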

Additional observations from a re-analysis of the deposited data

How the results depend on the processing

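No result changed direction past 2-fold under the alternatives run. Crabp2 moved from 3.83 to 2.14 with the floor at the 67th percentile and to 3.13 with no floor and a pseudocount of 16; a higher floor or a pseudocount shrinks a difference that starts at the floor. The other 6 measured genes moved by less than the gauge of 0.38. With the spike-in scaling, lower calls rose from 0 to 1 gene and 2 probe sets (pathway genes from 1 to 3), with 574 of all genes higher and 1040 lower. With the floor at the 33rd percentile there was 1 lower gene and probe set, Aldh1a3 at a bound of -1.03, and 4 lower pathway genes. Of the 14652 genes measured at that floor, 1341 were higher and 793 lower. With the floor at the 67th percentile 495 of all genes were higher and 365 lower. The threshold of 1.5-fold gave 2 lower genes, 3 lower probe sets, 4 lower pathway genes, and 2040 higher and 1405 lower of all genes; that of 3-fold left 1 higher gene and probe set, Crabp2, and 346 and 176 of all genes. Lower pathway genes numbered 2 with the pseudocount, where Lrat joined, beside 769 higher and 464 lower of all genes. They numbered 3 once probe sets marked as shared or alternative were omitted, where Lrp2 (-1.02) and Meis1 (-1.24) took another probe set. Of the 10084 genes then measured, 774 were higher and 552 lower. No paired analysis was possible because each group has 1 array. Crabp1 and Aldh1a3 are too dim to compare.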
